A study of Homo sapiens with 12 samples.

Results

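Mitochondrial ribosomal protein genes are the nuclear genes for the protein part of the mitochondrial ribosome. They were taken by name, as the rows whose symbol is MRPL or MRPS with a number (and a letter A, B or C where there is one), or DAP3, which gave 79 of the 58307 rows that name a gene. The mitochondrial ribosome translates the few messages encoded by mitochondrial DNA, all of which specify subunits of the respiratory chain and ATP synthase. Its proteins are made in the cytosol and imported, while its ribosomal RNAs come from mitochondrial DNA. Rapamycin blocks mTORC1, a kinase that is known for promoting the translation of mRNAs for ribosomal and mitochondrial proteins, which is a step that the mRNA levels measured here do not record.

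Both cell lines, A375 and SK-MEL-28, were established from human melanomas. In the study, autophagy was induced with rapamycin to ask how it changes the response of such cells to etoposide, a poison of topoisomerase II. Every group received etoposide: A375 with etoposide, A375 with etoposide + rapamycin, SK-MEL-28 with etoposide, and SK-MEL-28 with etoposide + rapamycin, each with 3 libraries of polyA-enriched RNA, 12 in all. No group was left untreated or given rapamycin alone, so no value below is an effect of etoposide, and neither dose nor duration of treatment before sequencing is given in the sources used here. The melanocyte lineage genes SOX10, S100B and MITF were detected in all 4 groups, with mean levels of 291 to 475, 58.5 to 98.2 and 13.5 to 28.3 CPM (counts relative to the library total, scaled by edgeR's TMM method). The pigment genes TYR, MLANA, PMEL, DCT and TYRP1 were between 0 and 2.5 CPM in both lines, so the libraries labelled SK-MEL-28 carried no more than traces of them. Among markers of other cells, the fibroblast gene LUM had group means of 4.39 and 7.3 CPM in A375 and 16.2 and 25.6 CPM in SK-MEL-28. The epithelial gene KRT14 had 5.28 to 9.81 CPM. DCN, PECAM1, VWF, COL1A1, EPCAM, KRT5, PTPRC and CD3E were between 0 and 5.73 CPM. Under etoposide the lines differed by a called fold over 1.5 in 2477 of 19025 genes and by over 10 in 77. The identity of the lines was not tested here and is uncertain to that extent, and SK-MEL-28 below means the libraries with that label. Library totals were 28189501 to 32499337 counts, with the lines and treatments overlapping.

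Of the 79 members, 51 belong to the large subunit and 27 to the small subunit in current structures. These include MRPS30 and MRPS18A, which were named for the small subunit but sit in the large one. MRPS36 is now assigned to the 2-oxoglutarate dehydrogenase complex under the name KGD4, and is kept here because the name rule takes it. By the class their structural names give them, 46 members are homologs of a bacterial ribosomal protein and 32 are mitochondrion-specific. This class was not checked against the protein sequences. All 79 passed the expression filter in every comparison, and no symbol occurred in more than 1 row.

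The members were moderately expressed. Their mean level over the 12 libraries ran from 10.9 CPM for MRPL1 to 155 CPM for DAP3, a GTP-binding protein of the small subunit, with a median of 43.4 CPM. Together they held 0.362% to 0.388% of the counts in A375 libraries and 0.379% to 0.412% in SK-MEL-28 libraries. Per kilobase of transcript, the highest levels were those of MRPL41 (142 CPM per kb), MRPL53 (139), MRPL20 and MRPS6 (both 104), and the lowest were those of MRPL42 (3.34) and MRPL19 (5.32). The per-kilobase values rest on the annotated canonical transcript, which for MRPL42 is 15557 bases long, so they depend on which isoform these cells use.

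Promoters are shown for 3 members from the comparisons that follow, which were not picked by size of change. MRPL36 and MRPS2 were higher with rapamycin in both cell lines, and MRPS30 was among the members whose response differed between the lines. Each promoter runs from 250 bases before to 50 bases after the RefSeq start (GRCh38.p14), 5′ to 3′ on the strand of the gene. The windows are chr5:1799788-1800087 (minus strand) for MRPL36, chr9:135500432-135500731 (plus strand) for MRPS2 and chr5:44808697-44808996 (plus strand) for MRPS30. Capitals mark matches on either strand to letters known for factors that act on mitochondrial genes: CCGGAAG for the ETS family that includes GABPA, TGCGCA for the core of NRF1, CACGTG for the E-box and ATGGCGG for YY1.

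MRPL36: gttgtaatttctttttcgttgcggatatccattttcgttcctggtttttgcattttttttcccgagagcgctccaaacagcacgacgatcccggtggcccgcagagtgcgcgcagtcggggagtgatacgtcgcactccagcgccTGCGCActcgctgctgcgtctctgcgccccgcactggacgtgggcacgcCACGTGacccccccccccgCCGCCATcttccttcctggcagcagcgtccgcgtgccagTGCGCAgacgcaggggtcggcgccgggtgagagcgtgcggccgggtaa
MRPS2: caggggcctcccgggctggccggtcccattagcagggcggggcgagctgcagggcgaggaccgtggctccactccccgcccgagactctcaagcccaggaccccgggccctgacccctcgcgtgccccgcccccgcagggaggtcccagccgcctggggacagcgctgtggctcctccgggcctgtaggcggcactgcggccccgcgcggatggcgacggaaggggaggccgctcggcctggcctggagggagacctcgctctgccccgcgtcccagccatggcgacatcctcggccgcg
MRPS30: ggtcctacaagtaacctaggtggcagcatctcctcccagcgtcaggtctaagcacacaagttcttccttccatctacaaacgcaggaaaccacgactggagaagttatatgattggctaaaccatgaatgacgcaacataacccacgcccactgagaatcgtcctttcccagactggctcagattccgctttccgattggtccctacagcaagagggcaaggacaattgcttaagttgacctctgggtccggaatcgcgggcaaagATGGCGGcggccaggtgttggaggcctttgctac

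The MRPL36 window held 4 matches, the NRF1 core at -105 and 2, the E-box at -56 and the YY1 letters, read on the other strand, at -37, counted from the start site. The MRPS2 window held 0 of the 4 motifs, and the MRPS30 window held the YY1 letters at 16. A single window was searched per gene, and other starts were not. The MRPS2 window, from 135500432, lies inside the GENCODE gene, which starts at 135499984. The MRPL36 window ends at 1800087, short of the 5′ end of the GENCODE gene at 1801366. RefSeq promoters were matched for 71 of the 79 members. Of these, 40.8% held the ETS letters, against 14.4% of the promoters of protein-coding genes and 10.7% of all 300-base promoters in the table. The YY1 letters were in 33.8%, against 7.75% and 5.72%, the NRF1 core in 19.7%, against 10.8% and 8.42%, and the E-box in 9.86%, against 8.89% and 7.43%. The 11 promoters of members higher with rapamycin in A375 and the 13 of members lower held the YY1 letters in 4 and 8 cases and the ETS letters in 1 and 5. These are matches of letters and not measured sites.

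In A375, the mitochondrial ribosomal protein genes split. The quasi-likelihood test of edgeR was used, with p-values adjusted by the Benjamini-Hochberg method over all 18844 genes tested. By this test, 12 members were higher with rapamycin, 14 were lower and 53 were not called at an adjusted p under 0.05. Over all genes tested, 14.3% were called higher and 13.8% lower, against 15.2% and 17.7% of the members, so the members were called about as often. The expression filter admits genes of far lower level than any member, and these shares were not matched for level. None of the 79 was called with a fold change over 1.5, the threshold the study used, as 5.89% of all genes were. Their median log2 fold change was -0.03, against -0.01 for all genes, and 30 of the 79 were above 0. With library totals in place of edgeR's scaling the members split into 8 higher and 18 lower, and all genes into 2213 and 3364, from 2691 and 2604. Leaving out 1 etoposide + rapamycin library changed the 14 lower members to 8 (replicate 2) or 5 (replicate 3), and leaving out 1 etoposide library changed them to 6 (replicate 2 or 3). Lower calls over all genes fell too, from 13.8% to 10.6%, 9.69%, 11% and 9.83% in that order. The 12 higher members became 6 without etoposide + rapamycin replicate 1 and 7 without etoposide replicate 3, where 11% and 10.9% of all genes were called higher.

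The 12 members that rose in A375 came from both subunits. MRPL11 (chr11:66435075-66466738), a protein at the base of the stalk that recruits translation factors, stood at 21.0, 23.8 and 21.7 CPM in the etoposide libraries and at 28.4, 30.0 and 30.1 CPM with rapamycin. The groups did not overlap, and the log2 fold change was 0.42 (standard error 0.08, edgeR adjusted p = 0.00178). MRPL12, the stalk protein itself, which is also known to bind the mitochondrial RNA polymerase, stood at 66.8, 75.1 and 74.2 CPM with etoposide and at 84.45, 84.8 and 97.6 CPM with rapamycin (log2 fold change 0.31, standard error 0.07, edgeR adjusted p = 0.004). Its row shares a locus with SLC25A10, and how reads were divided between the names is not stated. MRPL41 stood at 65.5, 77.8 and 69.4 CPM and rose to 86.7, 85.45 and 101 CPM (log2 fold change 0.36, standard error 0.08, edgeR adjusted p = 0.00312). MRPL23, a protein near the exit of the peptide tunnel, had 18.25, 22.4 and 19.0 CPM against 25.35, 23.3 and 26.5 CPM (log2 fold change 0.34, standard error 0.10, edgeR adjusted p = 0.0199). In none of these 4 genes did an etoposide library reach the level of a rapamycin library. MRPL23 lost its call in 6 of 16 alternative analyses, among them those without A375 etoposide replicate 1 or 3 or without etoposide + rapamycin replicate 1 or 3, with adjusted p between 0.0536 and 0.525 where it was lost. The small-subunit gene MRPS34 and the smaller changes of MRPS24, MRPS25 and MRPL4, with those of MRPS2, MRPL36, MRPL9 and MRPS27 described below, complete the 12, the log2 fold changes of all 12 lying between 0.13 and 0.42.

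The members that fell in A375 came from both subunits too. MRPL39, a mitochondrion-specific protein of the large subunit, stood at 15.2, 18.1 and 17.3 CPM with etoposide and at 11.7, 12.3 and 13.5 CPM with rapamycin, and its log2 fold change was -0.43 (standard error 0.10, edgeR adjusted p = 0.00738). MRPL47 (chr3:179588285-179604649), at the tunnel exit, stood at 29.2, 26.3 and 27.85 CPM against 20.5, 21.1 and 21.0 CPM (log2 fold change -0.41, standard error 0.08, edgeR adjusted p = 0.00193). MRPL13 stood at 31.3, 34.5 and 33.7 CPM against 24.9, 25.3 and 25.8 CPM (log2 fold change -0.38, standard error 0.07, edgeR adjusted p = 0.00179). In these 3 genes every rapamycin library was below every etoposide library. MRPL50 fell from 20.5, 22.9 and 21.7 CPM to 17.8, 16.9 and 16.6 CPM (log2 fold change -0.34, standard error 0.09, edgeR adjusted p = 0.0102). MRPS36, the member that is no longer counted as a ribosomal protein, had 17.6, 24.4 and 20.1 CPM against 16.2, 15.45 and 15.4 CPM. Its etoposide libraries were spread wide, with replicate 2 the highest, and its log2 fold change was -0.39 (standard error 0.12, edgeR adjusted p = 0.0218). Without that replicate it was -0.26 (edgeR adjusted p = 0.0954), and it was not called in 5 of 16 alternatives, where adjusted p was 0.0659 to 0.327, these including the ones without etoposide + rapamycin replicate 2 or 3. By subunit, 7 of the 51 large-subunit members were higher and 9 lower, and 5 of the 27 small-subunit members were higher and 4 lower. By class, 8 of the 46 members with a bacterial homolog were higher and 6 lower, and 4 of the 32 mitochondrion-specific members were higher and 7 lower.

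In SK-MEL-28, fewer members were called, and 7 of those 8 were higher with rapamycin. Of the 79, 7 were higher, 1 was lower and 71 were not called by edgeR among the 18897 genes tested, where 8.83% of all genes were called higher and 10.1% lower. The median log2 fold change of the members was 0.04, against 0.01 for all genes, and 53 members were above 0. MRPL36 alone passed the fold change of 1.5 with its call, which 4.99% of all genes did. Without SK-MEL-28 etoposide replicate 3 the 7 became 4, and higher calls over all genes fell to 5.93%. The single lower member became 2 without etoposide + rapamycin replicate 2 or without etoposide replicate 1, where 7.54% and 8.22% of all genes were lower.

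MRPL36 (chr5:1798385-1801366), a small zinc-binding protein of the large subunit, stood at 29.3, 29.2 and 27.5 CPM with etoposide and at 43.4, 48.4 and 42.45 CPM with rapamycin in SK-MEL-28. The groups lay far apart compared with the spread inside them, and the log2 fold change was 0.64 (standard error 0.07, edgeR adjusted p = 4.39e-05), called in all 16 alternatives. In A375 it stood at 24.6, 28.7 and 30.8 CPM with etoposide and at 38.7, 38.2 and 32.01 CPM with rapamycin, so that the third rapamycin library was close to the highest etoposide library. The log2 fold change there was 0.38 (standard error 0.10, edgeR adjusted p = 0.0118), and without A375 etoposide + rapamycin replicate 1 it was 0.33 (edgeR adjusted p = 0.0544). The difference between the lines was not called (0.27, standard error 0.12, edgeR adjusted p = 0.23).

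Another 3 members were higher in both lines, MRPS2, MRPL9 and MRPS27, while none was lower in both and none was called in opposite directions. MRPS2 (chr9:135499984-135504673), a small-subunit protein with a bacterial homolog, stood at 42.5, 45.9 and 43.8 CPM with etoposide in A375 and at 52.6, 55.1 and 58.9 CPM with rapamycin (log2 fold change 0.34, standard error 0.06, edgeR adjusted p = 0.00123). In SK-MEL-28 it stood at 42.9, 48.7 and 47.4 CPM against 50.3, 57.9 and 55.6 CPM, where the highest etoposide library came close to the lowest rapamycin library (0.23, standard error 0.07, edgeR adjusted p = 0.0305). The SK-MEL-28 call of MRPS2 was lost in 6 of 16 alternatives, with adjusted p of 0.057 to 0.117, among them the analyses that left out SK-MEL-28 etoposide replicate 1 or 3 or etoposide + rapamycin replicate 2 or 3. MRPL9 (chr1:151759647-151763496) stood at 57.1, 64.4 and 58.9 CPM against 73.3, 67.98 and 66.7 CPM in A375 (0.21, standard error 0.06, edgeR adjusted p = 0.0196). In SK-MEL-28 it had 60.0, 61.5 and 63.1 CPM against 73.6, 74.0 and 68.3 CPM (0.22, standard error 0.05, edgeR adjusted p = 0.00951). The groups did not overlap in either line. MRPS27 (chr5:72214953-72321717), a small-subunit protein with pentatricopeptide repeats, varied little between replicates, at 77.1, 74.4 and 76.05 CPM against 82.4, 83.7 and 82.9 CPM in A375 (0.13, standard error 0.05, edgeR adjusted p = 0.0426). In SK-MEL-28 it stood at 81.25, 79.9 and 77.05 CPM against 94.5, 96.9 and 96.5 CPM (0.27, standard error 0.05, edgeR adjusted p = 0.00166).

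**Figure D1:**
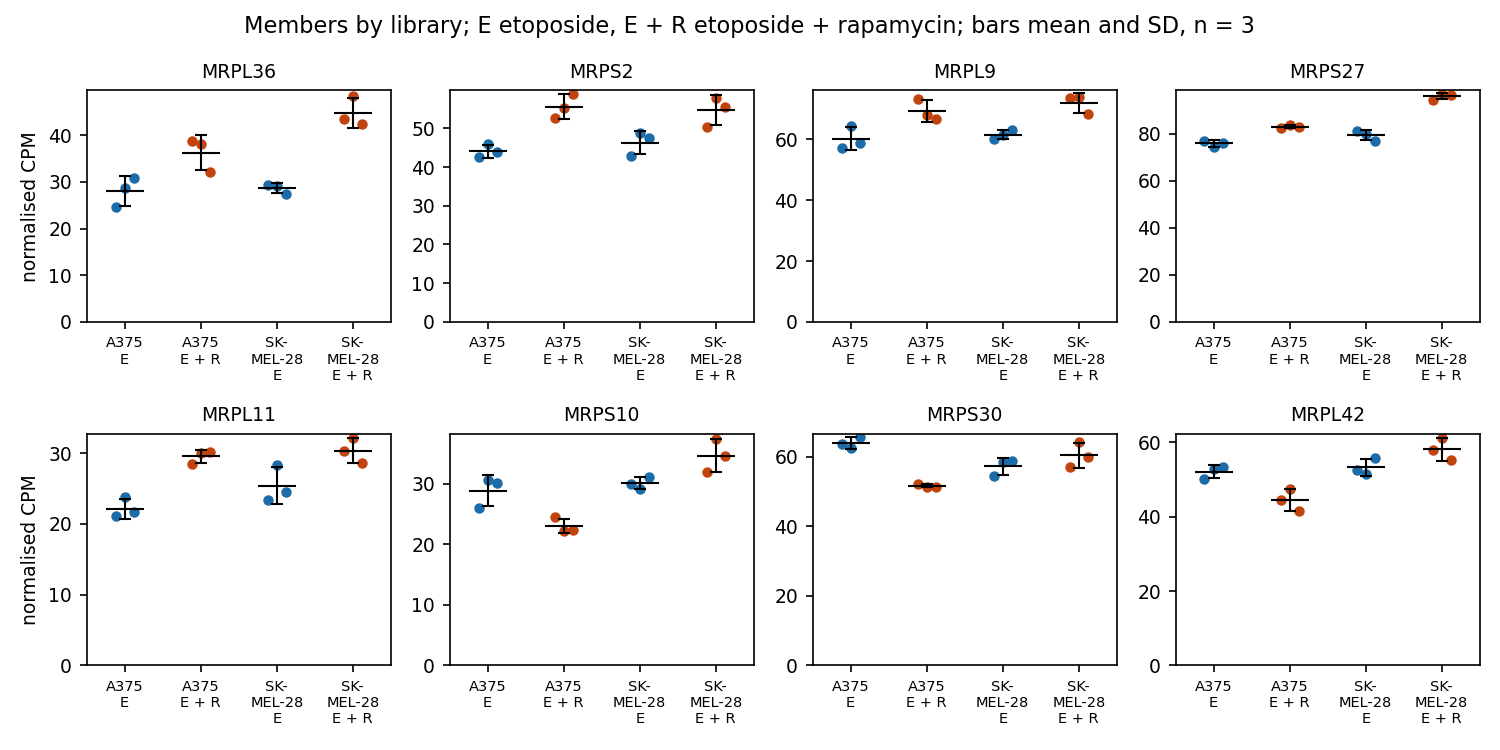
Normalised level (CPM, linear axis from 0) of 8 members in each library by cell line and treatment, E for etoposide and E + R for etoposide + rapamycin. Points are libraries and bars the mean and SD of 3. MRPL36, MRPS2, MRPL9 and MRPS27 were higher with rapamycin in both lines, and MRPS30 fell from between 62.55 and 65.9 to between 51.4 and 52.3 CPM in A375 with no such fall in SK-MEL-28.

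The other SK-MEL-28 calls were not shared with A375. MRPS33 rose from 27.3, 27.2 and 25.7 CPM to 33.2, 37.1 and 31.2 CPM (log2 fold change 0.34, standard error 0.08, edgeR adjusted p = 0.0102), and in A375 its log2 fold change was -0.02. MRPL45, a large-subunit protein near the tunnel exit that faces the inner membrane, rose from 58.1, 55.8 and 62.6 CPM to 68.3, 69.2 and 71.1 CPM (0.24, standard error 0.05, edgeR adjusted p = 0.00892), and its log2 fold change was -0.01 in A375. DAP3 (chr1:155687960-155739010) rose from 131, 131 and 129 CPM to 144, 155 and 148 CPM (0.19, standard error 0.05, edgeR adjusted p = 0.0168). In A375 it stood at 159, 175 and 163 CPM with etoposide and 176, 179 and 175 CPM with rapamycin, where the highest etoposide library reached into the rapamycin range (0.10, standard error 0.05, edgeR adjusted p = 0.164). MRPL17 was the single lower member in SK-MEL-28, with 50.6, 54.98 and 54.5 CPM against 41.96, 43.55 and 46.2 CPM (-0.28, standard error 0.06, edgeR adjusted p = 0.00569). In all 4 genes the SK-MEL-28 groups did not overlap. The test of the difference between the lines did not call any of the 4, with adjusted p of 0.0603 for MRPL45, 0.106 for MRPS33, 0.307 for MRPL17 and 0.405 for DAP3. The SK-MEL-28 call was lost without etoposide replicate 3 for MRPS33 (adjusted p = 0.0509) and without etoposide replicate 2 or etoposide + rapamycin replicate 3 for MRPL45 (0.053 and 0.0558). For DAP3 it was lost in 4 alternatives, those without etoposide replicate 2 or 3 or etoposide + rapamycin replicate 2 or 3 (0.0503 to 0.0655).

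Across the 79 members, which are not independent of each other, the Pearson correlation between the A375 and the SK-MEL-28 log2 fold changes was 0.51 and the Spearman correlation 0.502, and 50 members had the same sign. The lines have separate etoposide libraries. Both are given as descriptions, since the members share the libraries and their GC content.

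**Figure D2:**
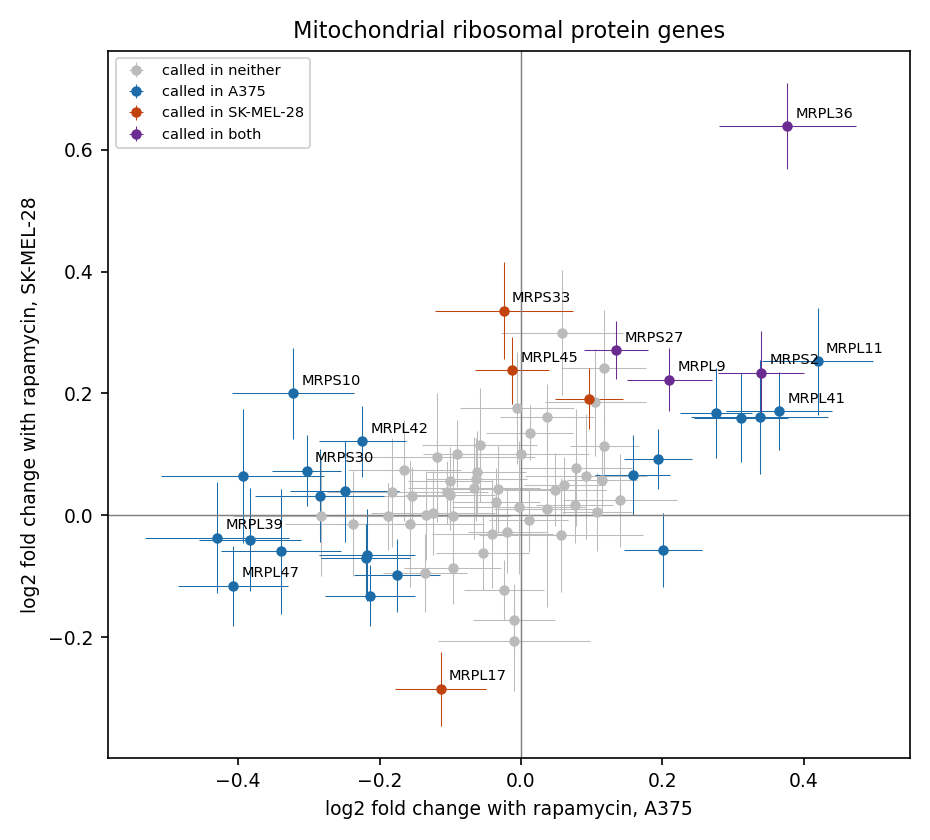
Log2 fold change of each of the 79 members with rapamycin in A375 (x axis) and SK-MEL-28 (y axis), with standard errors as bars, coloured by the line in which edgeR called it. MRPL36 lies alone at the upper right with 0.38 and 0.64, and the members lower in A375, at the left, lie between -0.13 and 0.20 on the SK-MEL-28 axis, with MRPS10 the highest of them.

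The response to rapamycin differed between the lines for 3 members by the interaction term over all 12 libraries, in which 20101 genes were tested and 2.66% were called higher and 2.97% lower in SK-MEL-28. None of the 79 members was called lower by edgeR, where 1 was lower at an unadjusted p under 0.05 and DESeq2 called 1 lower and 5 higher, and none passed a fold of 1.5 in this difference, which 1.62% of all genes did. Of the genes to which DESeq2 gave an adjusted p, it called 6.11% lower and 4.55% higher. The median of the members' differences was 0.11, against 0.02 for all genes. Without A375 etoposide replicate 1 a single member was called lower, as were 3.72% of all genes. MRPS10 (chr6:42206807-42217861), a small-subunit protein with a bacterial homolog, stood in A375 at 25.95, 30.6 and 30.1 CPM with etoposide and at 24.4, 22.25 and 22.4 CPM with rapamycin. In SK-MEL-28 it stood at 30.05, 29.1 and 31.1 CPM against 31.9, 37.45 and 34.6 CPM. All rapamycin libraries were lower in A375 and all were higher in SK-MEL-28. The difference of log2 fold changes was 0.53 (standard error 0.11, edgeR adjusted p = 0.0107), with -0.32 in A375 (edgeR adjusted p = 0.0146) and 0.20 in SK-MEL-28 (not called, edgeR adjusted p = 0.0837). The A375 call was itself lost in 5 of 16 alternatives, with adjusted p of 0.0514 to 0.122, these including the analyses without etoposide replicate 2 or 3 and without etoposide + rapamycin replicate 2 or 3.

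MRPS30 (chr5:44808947-44820428), a large-subunit protein in spite of its name, stood in A375 at 63.7, 62.55 and 65.9 CPM with etoposide and at 52.3, 51.4 and 51.5 CPM with rapamycin. The SK-MEL-28 libraries had 54.5, 58.5 and 58.85 CPM against 57.2, 64.35 and 59.8 CPM. The A375 groups were far apart and the SK-MEL-28 groups overlapped, with a difference of 0.385 (standard error 0.08, edgeR adjusted p = 0.00762). MRPL42, a mitochondrion-specific protein of the large subunit, stood in A375 at 50.2, 52.9 and 53.3 CPM against 44.5, 47.35 and 41.6 CPM, and in SK-MEL-28 at 52.5, 51.5 and 55.8 CPM against 57.9, 61.3 and 55.2 CPM. The SK-MEL-28 groups overlapped, and the difference was 0.35 (standard error 0.09, edgeR adjusted p = 0.0226). Over the 21 alternatives, MRPS10 and MRPS30 were called in all, with adjusted p up to 0.0453 and 0.0265. MRPL42 was not called in 9, with adjusted p of 0.0505 to 0.131 in those, among them the analyses without A375 etoposide + rapamycin replicate 1 or 3, A375 etoposide replicate 2 or 3, SK-MEL-28 etoposide + rapamycin replicate 2 or SK-MEL-28 etoposide replicate 2.

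The fold changes of the members in A375 followed the GC content of their transcripts. Over the 79 members, the Spearman correlation of log2 fold change with GC content reached 0.737 in A375, against 0.412 over the 15962 genes with an annotated transcript. For SK-MEL-28 the corresponding values were 0.228 and, over 16023 genes, 0.068. The 12 members higher in A375 had 46.39% to 66.67% GC, with a median of 58.58%, and the 14 lower ones had 34.83% to 46.42%, with a median of 40.21%. At thresholds of 55% and 42%, which were chosen after the values were seen, 7 of the 19 members of high GC content were called higher in A375 and 0 lower, and 0 of the 18 of low GC content were called higher and 11 lower. In SK-MEL-28 the high-GC members had 1 higher and 0 lower and the low-GC members 1 higher and 0 lower. The difference between the lines ran the other way with GC content, with a Spearman correlation of -0.685 over the members and -0.374 over 16827 genes, and MRPS10, MRPL42 and MRPS30 had 41.48%, 38.33% and 46.42% GC. That difference is the SK-MEL-28 log2 fold change minus the A375 one, so its relation to GC content largely restates the one in A375.

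The relation was also taken library by library, as deviations from the mean of the 6 libraries of a line. Such deviations contain the difference between the treatments. They show how it spread over the libraries and are not separate evidence for it. Relative to the mean of the 6 A375 libraries, the correlation of level with GC content over the members was 0.665, 0.399 and 0.709 in the 3 rapamycin libraries and -0.512, -0.547 and -0.635 in the 3 etoposide libraries. In SK-MEL-28 it was 0.182, -0.011 and 0.284 with rapamycin and -0.476, 0.23 and -0.04 with etoposide, where etoposide replicates 1 and 2 went opposite ways. When each library's trend with GC content was taken out before the test, an alternative added after the data were seen, A375 had 8 members higher and 6 lower, where 12.1% and 12.3% of all 15962 genes of that fit were called. On the same genes without the correction, the members split as before into 12 and 14, and 16.7% and 16.5% of all genes were called. Of the original calls, 6 of the 12 higher members kept their call (MRPL11, MRPL36, MRPL9, MRPS2, MRPS25 and MRPS27) and 2 of the 14 lower ones did (MRPL13 and MRPS30). DAP3 and MRPL3 were then called higher, and MRPL16, MRPL49, MRPS12 and MRPS18A lower. The log2 fold change of MRPL41 went from 0.36 to 0.08 (edgeR adjusted p = 0.372), that of MRPL12 from 0.31 to 0.06 (0.477), and that of MRPL50 from -0.34 to -0.12 (0.367). Those of MRPL39 and MRPL47 went to -0.29 and -0.22 (0.0569 and 0.0514). In SK-MEL-28 the same alternative called 12 members higher and 2 lower, and 11.3% and 13.3% of all 16023 genes. There the smaller set of genes alone, with no correction, already gave 10 higher and 1 lower, with 10.3% and 12.2% of all genes. In the difference between the lines it called MRPS10 (0.42) and MRPS30 (0.34) and did not call MRPL42 (0.21, edgeR adjusted p = 0.131). In A375 all 3 rapamycin libraries differ from all 3 etoposide libraries in this trend, so the treatment and the trend cannot be told apart there.

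**Figure D3:**
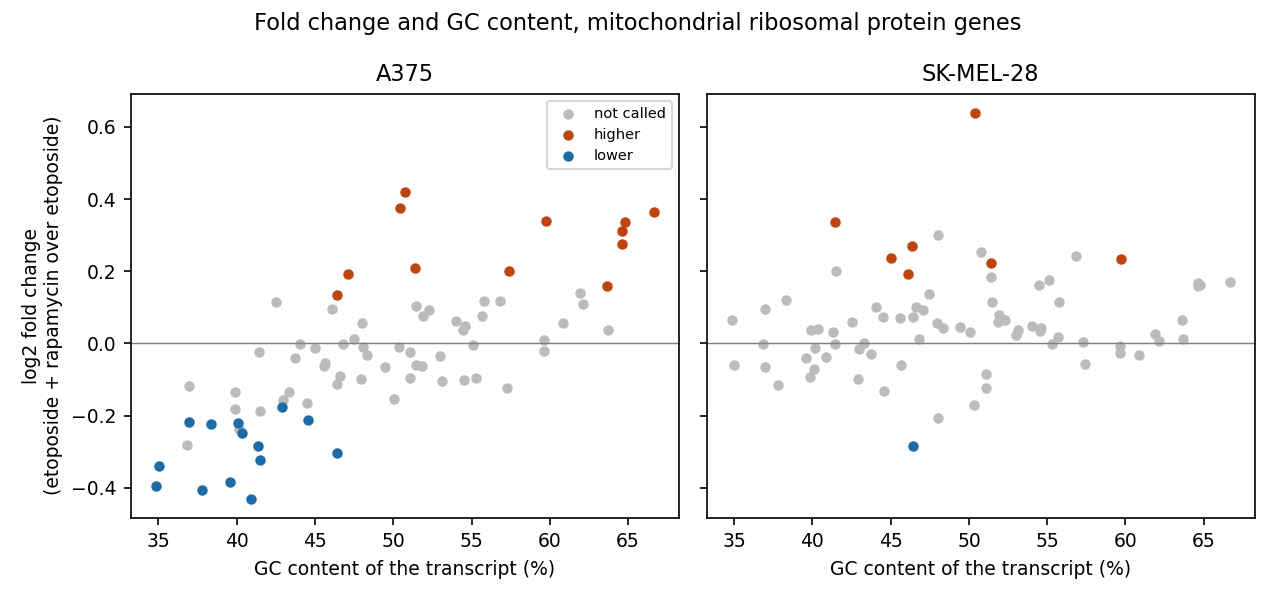
Log2 fold change with rapamycin against the GC content of the transcript (%) for the 79 members in A375 (left) and SK-MEL-28 (right), coloured by edgeR's call. In A375 the points climb from left to right, with a Spearman correlation of 0.737, and in SK-MEL-28 they lie mostly flat around 0, with 0.228.

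Between the lines under etoposide, 11 members were higher in SK-MEL-28 and 4 lower, where 15.2% and 16.5% of the 19025 genes tested were called. MRPS6 alone passed the fold change of 1.5 with its call, which 13% of all genes did. The members' median log2 difference was 0.04, against -0.0025 for all genes, and 59 members were higher than 0. MRPS6 (chr21:34073224-34143034), a small-subunit protein with a bacterial homolog, stood at 106, 123 and 121 CPM in A375 with etoposide and at 73.4, 73.1 and 73.9 CPM in SK-MEL-28. The difference was -0.66 (standard error 0.06, edgeR adjusted p = 3.86e-06), and with rapamycin the levels were 118, 121.5 and 111 CPM against 79.2, 82.7 and 80.8 CPM. The row of MRPS6 shares its locus with SLC5A3, a myo-inositol transporter gene. DAP3 was lower in SK-MEL-28 with the values given above (-0.35, standard error 0.05, edgeR adjusted p = 0.000211). MRPL55 stood at 23.7, 23.7 and 23.8 CPM in A375 and at 12.3, 21.4 and 18.9 CPM in SK-MEL-28, whose first library was low. Its difference was -0.44 (standard error 0.15, edgeR adjusted p = 0.0419), and -0.24 without that library (edgeR adjusted p = 0.0808). MRPL24 had 40.6, 48.4 and 49.2 CPM in A375, with replicate 1 low, against 38.9, 40.3 and 38.8 CPM in SK-MEL-28 (-0.23, standard error 0.08, edgeR adjusted p = 0.042). MRPL55 and MRPL24 were each not called in 6 of 16 alternatives, with adjusted p of 0.0662 to 0.141 and 0.0767 to 0.157. MRPL55 lost its call without any 1 of the 6 libraries other than SK-MEL-28 etoposide replicate 2, and MRPL24 without any other than A375 etoposide replicate 1. The 4 lower members became 2 without A375 etoposide replicate 2 or 3 or without SK-MEL-28 etoposide replicate 1 or 3. Lower calls over all genes were then 13.4%, 13.4%, 13.9% and 13%, from 16.5%.

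Of the members higher in SK-MEL-28, MRPL47 had 29.2, 26.3 and 27.85 CPM in A375 with etoposide and 41.0, 40.9 and 37.9 CPM in SK-MEL-28 (0.52, standard error 0.07, edgeR adjusted p = 9.21e-05). MRPL16, a large-subunit protein with a bacterial homolog, had 64.0, 65.6 and 61.75 CPM against 87.6, 90.7 and 92.3 CPM (0.50, standard error 0.05, edgeR adjusted p = 1.42e-05). MRPL30 had 36.2, 35.7 and 38.4 CPM against 50.75, 47.7 and 50.95 CPM (0.44, standard error 0.06, edgeR adjusted p = 0.000173), and its row shares a locus with LIPT1, a lipoate transferase gene. In these 3 genes all SK-MEL-28 libraries were well above all A375 libraries. MRPS25 followed with 63.0, 62.9 and 60.7 CPM against 83.4, 82.5 and 80.2 CPM (0.40, standard error 0.05, edgeR adjusted p = 8.82e-05). MRPL10, a stalk protein, had 60.7, 63.8 and 58.3 CPM against 78.05, 80.45 and 77.5 CPM (0.37, standard error 0.06, edgeR adjusted p = 0.000285). MRPL17 had 40.5, 45.1 and 42.04 CPM against 50.6, 54.98 and 54.5 CPM (0.33, standard error 0.07, edgeR adjusted p = 0.00208). Again the groups did not overlap. The other 5 higher members were MRPS9, MRPL3, MRPL35, MRPS11 and MRPS7, of smaller difference. By class, 10 of the 11 higher members have a bacterial homolog, as 46 of the 79 do, and this share was not tested. These values share the etoposide libraries with the 2 responses to rapamycin, so they are set beside them and not correlated with them. MRPL47 was lower with rapamycin in A375 (-0.41) and not called in SK-MEL-28 (-0.12), and MRPL17 was lower with rapamycin in SK-MEL-28 (-0.28) and not called in A375 (-0.11).

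**Figure D4:**
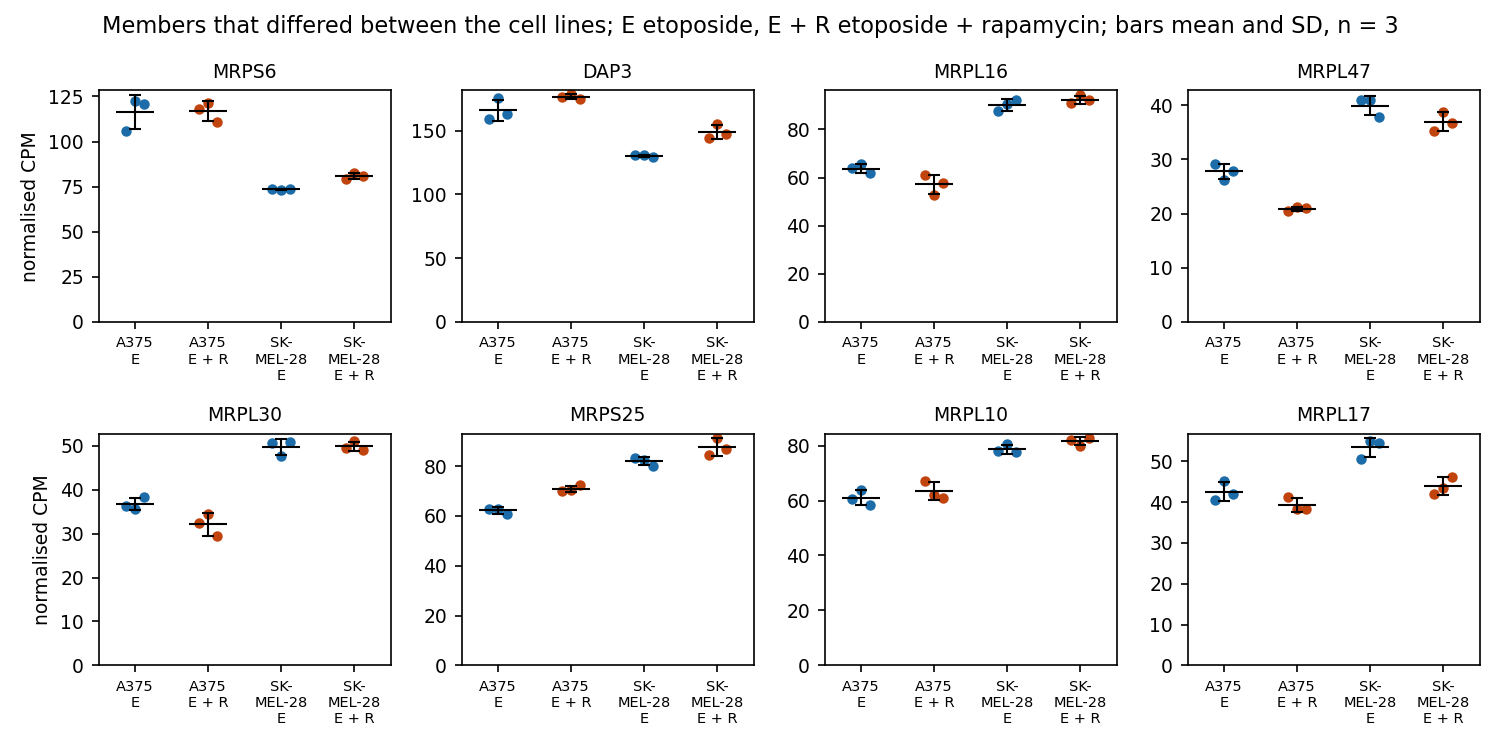
Normalised level (CPM, linear axis from 0) of 8 members called between the lines under etoposide, in each library by line and treatment, with mean and SD of 3 as bars. MRPS6 and DAP3 lie lower in the SK-MEL-28 libraries, MRPS6 at 73.1 to 73.9 against 106 to 123 CPM with etoposide, and the other 6 lie higher.

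Some members named for their role were not called. MRPL58, which releases peptides from stalled mitochondrial ribosomes, had log2 fold changes of -0.06 in A375 (edgeR adjusted p = 0.641) and 0.12 in SK-MEL-28 (0.443). MRPS18A, MRPS18B and MRPS18C share a name. Their structural names class MRPS18C as the bacterial homolog and the other 2 as mitochondrion-specific, which leaves aside how the 3 are related in sequence. None of the 3 was called in any of the 4 comparisons. The A375 log2 fold changes of these genes were -0.12, -0.06 and -0.28 (standard errors 0.09, 0.07 and 0.13), and those in SK-MEL-28 were 0.0038, 0.06 and -0.0013 (standard errors 0.07, 0.07 and 0.10). Without A375 etoposide replicate 1, MRPS18C was lower in A375 (-0.41, edgeR adjusted p = 0.0142).

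The cytosolic ribosomal protein genes moved otherwise than the mitochondrial ones. Of 85 tested in A375, 76 were higher with rapamycin and 2 lower, with a median log2 fold change of 0.39, and of 86 tested in SK-MEL-28, 76 were higher and 0 lower by edgeR (0 also at an unadjusted p under 0.05), with a median of 0.49. The mitochondrial members had medians of -0.03 and 0.04 in the same libraries. The nuclear genes for respiratory chain subunits, whose mitochondrial partners this ribosome makes, were called lower more often than higher. Of 78 tested in A375, 6 (7.69%) were higher and 21 (26.9%) lower (median -0.14), against 14.3% and 13.8% of all genes. For SK-MEL-28, 3 of 80 (3.75%) were higher and 11 (13.8%) lower (median -0.07), against 8.83% and 10.1%. The lower share was thus near that of all genes for SK-MEL-28. These lists were not tested against each other, and the GC content trend was left in.

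**Figure D5:**
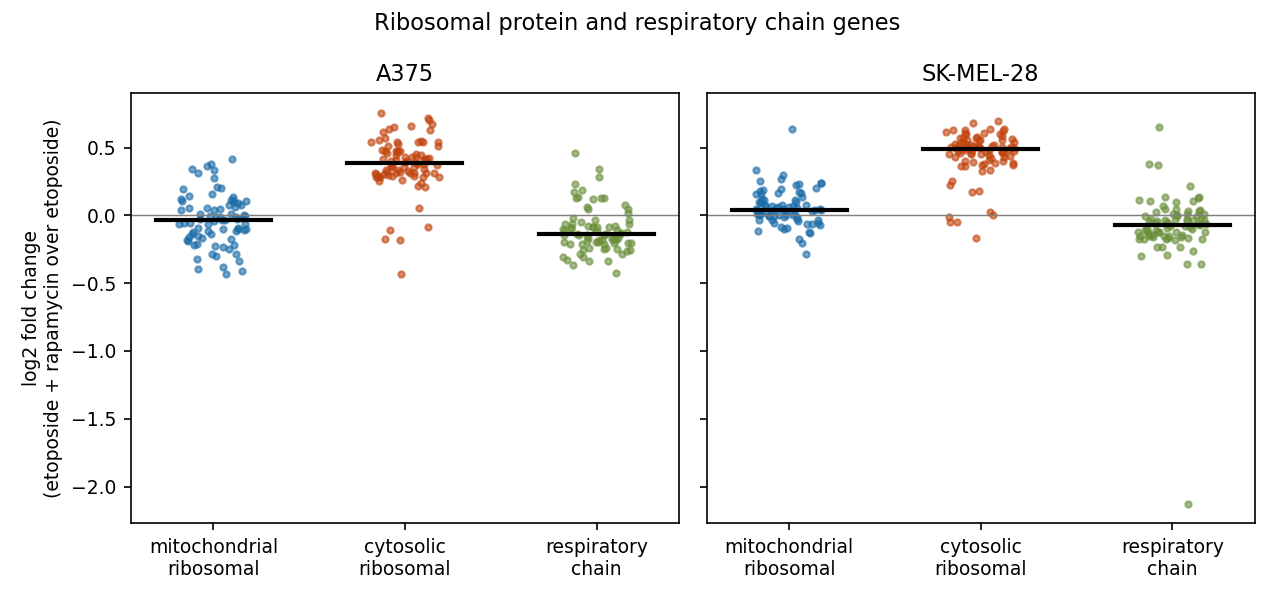
Log2 fold change with rapamycin for mitochondrial ribosomal, cytosolic ribosomal and respiratory chain genes in A375 (left) and SK-MEL-28 (right). Each point is a gene and each black line the median of the list: from left to right -0.03, 0.39 and -0.14 for A375, then 0.04, 0.49 and -0.07 for SK-MEL-28.

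Among the partners of this ribosome, most RNAs encoded by mitochondrial DNA and some of the translation factors were lower in A375. The calls of these partners, here and in the next paragraph, come from the fits that left the GC content trend in. Of 14 RNAs encoded by mitochondrial DNA, 13 were lower with rapamycin in A375 and 0 higher (0 also at an unadjusted p under 0.05; median -0.27), led by MT-ATP6 (-0.43, edgeR adjusted p = 0.000102) and MT-ATP8 (-0.37, edgeR adjusted p = 0.000496), both for subunits of ATP synthase. In SK-MEL-28, 5 of 14 were lower and 0 higher (2 higher at an unadjusted p under 0.05; median -0.10), led by MT-CO3 (-0.41, edgeR adjusted p = 0.000117) and MT-ND5 (-0.245, edgeR adjusted p = 0.0162), and 4 of the 14 responses differed between the lines, each with the higher log2 fold change in SK-MEL-28. MT-ND4 did not pass the expression filter with 6 to 7 counts per library, while MT-ND4L, whose row has the same locus identifier, held 158949 to 267905, so reads of one may be counted under the other and the value of MT-ND4L may not be its own. Of 17 translation factors of the organelle, 7 were lower in A375 and 0 higher (0 also at an unadjusted p under 0.05), led by MTRF1, a release factor homolog (-0.58, edgeR adjusted p = 0.0191), and GFM2, a recycling factor (-0.35, edgeR adjusted p = 0.00057). In SK-MEL-28, 2 of the 17 were higher and 0 lower (4 lower at an unadjusted p under 0.05), MRRF, the ribosome recycling factor (0.40, edgeR adjusted p = 0.00199), and OXA1L, which inserts new proteins into the inner membrane (0.25, edgeR adjusted p = 0.00328). MRRF alone of the 17 was called in the difference between the lines (0.33, edgeR adjusted p = 0.0401), where 2.66% of all genes were called higher. Of the mitochondrial RNAs, 92.9% were lower in A375 and 35.7% in SK-MEL-28, against 13.8% and 10.1% of all genes. In the difference, 28.6% of them were higher, against 2.66%. Of the translation factors, 41.2% were lower in A375, against 13.8% of all genes. In SK-MEL-28, 11.8% of them were higher, near the 8.83% of all genes.

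Of 25 assembly factors, 4 (16%) were higher and 2 (8%) lower in A375, near or below the 14.3% and 13.8% of all genes. The most raised were NOA1, a GTPase (0.35, edgeR adjusted p = 0.00115), and MTG1, another GTPase (0.27, edgeR adjusted p = 0.0205). The lower ones were METTL15, a methyltransferase of the small-subunit RNA (-0.40, edgeR adjusted p = 0.0154), and FASTKD2 (-0.26, edgeR adjusted p = 0.0358). NOA1 was also the single assembly factor called in SK-MEL-28 (0.34, edgeR adjusted p = 0.00164), 4% of the list against 8.83% of all genes. Of 4 mitoribosomal proteins whose names fall outside the rule, GADD45GIP1 was higher (0.21, edgeR adjusted p = 0.0316) and PTCD3 lower (-0.25, edgeR adjusted p = 0.00835) in A375, while in SK-MEL-28 edgeR called 0 of the 4, with 1 lower at an unadjusted p under 0.05. Of 13 genes for mitochondrial transcription and RNA processing, 1 was higher in A375, the RNA polymerase POLRMT (0.22, edgeR adjusted p = 0.0357), and 3 were lower, led by MTERF2 (-0.39, edgeR adjusted p = 0.0135) and MTERF1 (-0.33, edgeR adjusted p = 0.0173), while in SK-MEL-28 the tRNA-processing enzyme ELAC2 was the single call (-0.26, edgeR adjusted p = 0.0042). Of 10 regulators of mitochondrial genes, 4 were higher and 1 lower in A375, with the nuclear receptor ESRRA (0.31, edgeR adjusted p = 0.00274) and the coactivator PPRC1 (0.26, edgeR adjusted p = 0.00983) the most raised. The DNA-binding subunit GABPA was lower (-0.28, edgeR adjusted p = 0.0211). GABPB1, its partner, was higher in A375 (0.24, edgeR adjusted p = 0.00523) and was the single regulator called in SK-MEL-28 (0.26, edgeR adjusted p = 0.0348). Higher and lower shares in A375 were 7.69% and 23.1% for the transcription and processing genes and 40% and 10% for the regulators. In SK-MEL-28 they were 0% and 7.69%, and 10% and 0%, against 8.83% and 10.1% of all genes. None of these lists was tested as a set.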

How the data were processed

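RNA from A375 and SK-MEL-28 cells (4 groups of 3 libraries, 12 in all) was sequenced from polyA-enriched libraries. The authors aligned clean reads to the GRCh38 genome by HISAT2 2.2.0, used Samtools 1.3.1 for conversion to BAM, and ran StringTie 2.1.4 with Ensembl release 90 for gene expression. The values deposited by the authors are raw counts per gene and library, not normalized and not pooled; how coverage became counts, and whether strand was used, is not given in the sources used here. A shared locus or an antisense partner can therefore hold reads of a member: 16 members share a locus with another gene name and 41 overlap a gene on the other strand. Pseudogene rows of a member held over 1% of its level for 4 members (MRPL35, MRPL45, MRPS18A and MRPS31).

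Left out were 5 rows without a gene name (0.000991% to 0.00529% of the counts of a library), leaving 58307. Depth was 28189501 to 32499337 counts per library. Tests used edgeR 4.0.16 in R 4.3.3 (TMM scaling, the filter filterByExpr at a minimum count of 10, quasi-likelihood F test). P-values of all tested genes were adjusted together by the Benjamini-Hochberg method, with 0.05 as the threshold for a call. The rapamycin response was tested within each line separately. The etoposide libraries of the lines were compared in a fit of their own, and the difference between responses is the interaction term of a fit of all 12 libraries. A positive value is higher with rapamycin, or higher in SK-MEL-28. Standard errors were obtained as |log2 fold change| over the root of F. CPM are counts scaled to a common library size with TMM. Transcript length, GC content and positions were read from GENCODE release 44 (GRCh38), matched for 48518 of 58307 rows (83.2%) and for all 79 members. RefSeq promoters were matched for 71 members.

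The replicates are described as biological, and the p-values measure the spread between these libraries. The precision expected from counting alone was not used. On simulated counts, log2 changes of 0.25, 0.5 and 1 were recovered in 29.4%, 86.4% and 100% of cases in A375 (18844 genes, 17 false calls) and in 14.7%, 80.3% and 100% in SK-MEL-28 (18897 genes, 7 false calls). For the difference between the lines the shares were 4.41%, 51.5% and 98.5% (20101 genes, 7 false calls), and for SK-MEL-28 against A375 they were 22.1%, 84.8% and 100% (19025 genes, 18 false calls). In each simulation 68, 66 and 66 genes were changed by these sizes, far fewer than were called in the data. The adjusted threshold was stricter there, so the shares may understate recovery in the data. The 17 false calls in A375 stand beside 20, 57 and 66 genes recovered. Members, gene lists and tests were chosen with earlier results of these data known. Named in each comparison are DAP3, MRPL12, MRPL58, the MRPS18 genes, the 6 called members with the largest change in each direction, and the 2 called genes of each companion list with the largest change in each direction; members named beyond these, as MRPS34, MRPS24, MRPS25 and MRPL4 in A375, were chosen after their values were seen. Each library was left out in turn, and further alternatives were a replicate block, one fit of all 12 libraries, counts divided by 2 and rounded, DESeq2 1.42.0, RLE or library totals for scaling, and expression filters that asked for 10 counts in every library or for 1 in any; a fit with the GC content trend taken out (loess span 0.5) and one of genes with a transcript only were added after the data were seen. Not analysed here were the TCGA, xenograft, viability, western blot and RT-PCR data.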

Additional observations from a re-analysis of the deposited data

Results flagged for a closer look

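For 3 mitochondrial ribosomal protein genes the interaction term of edgeR over all 12 libraries called a difference between the cell lines in their response to rapamycin, and in each the log2 fold change was higher in SK-MEL-28. These are 3.8% of the members, near the 2.66% of all genes called higher in this test. For MRPS10 the difference was 0.53, with -0.32 in A375 and 0.20 in SK-MEL-28, and all 3 rapamycin libraries lay below the etoposide libraries in A375 and above them in SK-MEL-28. For MRPS30 it was 0.385, with -0.30 and 0.07, and for MRPL42 it was 0.35, with -0.22 and 0.12. The GC content of the 3 transcripts is 41.48%, 46.42% and 38.33%, below the median of the members, 48.04%, and the difference between the lines had a Spearman correlation of -0.685 with GC content over the 79 members. This largely restates the correlation of the A375 log2 fold changes with GC content, since the difference contains them. With the GC content trend of each library taken out, the differences of MRPS10 and MRPS30 were 0.42 and 0.34 and still called, and that of MRPL42 was 0.21 and not called.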

How the results depend on the processing

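For the named genes, 505 values under other settings and 326 with a library left out kept their direction and side of the threshold, 17 and 39 lost a call, 3 and 2 gained one, and 6 and 11 changed sign. The 14 members lower in A375 became 6 when 1 count in any library was enough to pass the filter (lower calls over all genes went from 13.8% of 18844 to 4.66% of 39259), 9 with the replicate block (11.4% of all genes) and 6 with the GC content trend taken out (12.3% of 15962). In SK-MEL-28 the single lower member became 4 with library totals, 2 with a filter of 10 counts in every library and 2 with the GC content trend out, and the 7 higher ones became 11 with the replicate block and 12 with the GC content trend out, where the smaller set of genes of that fit gave 10 without the correction. Lower calls over all genes went from 10.1% to 12.6%, 11.7% and 13.3% in these settings. Higher calls went from 8.83% to 8.24% with the replicate block and to 11.3% with the GC content trend out. DESeq2 called 5 members higher and 1 lower in the difference between the lines, and the filter of 1 count left 2 lower in SK-MEL-28 against A375. Of the genes to which DESeq2 gave an adjusted p, 4.55% were higher and 6.11% lower. With the filter of 1 count, 6.36% of all genes were lower between the lines, from 16.5%. With a library left out, higher and lower members ranged over 6 to 11 and 5 to 13 in A375, 4 to 9 and 1 to 2 in SK-MEL-28, 2 to 4 and 0 to 1 in the difference, and 9 to 11 and 2 to 4 between the lines. Calls over all genes ranged over 10.4% to 14.1% and 9.69% to 13% in A375, and 5.72% to 7.37% and 6.76% to 8.51% in SK-MEL-28. They ranged over 1.25% to 2.91% and 1.52% to 3.72% in the difference, and 11.9% to 13.6% and 13% to 14.5% between the lines. The medians of the members ranged over -0.0698 to -0.0038, 0.0164 to 0.0718, 0.0752 to 0.14 and 0.0087 to 0.0861. The sign changes were in values that the main tests did not call. In SK-MEL-28 they were MRPS18A (-0.0303 with library totals, -0.0046 with the GC content trend out) and MRPS18C (0.0022 with the filter of 1 count, 0.002 in one fit of all libraries, 0.0248 with the GC content trend out), and in the difference MRPL12 (0.0566 with the GC content trend out). With a library left out they were MRPS18B in A375 (-0.1149 to 0.0137), MRPS18C (-0.1126 to 0.0626) and MRPS18A (-0.0524 to 0.0535) in SK-MEL-28, and MRPS18A (-0.0011 to 0.1302), MRPS18B (-0.0168 to 0.1136) and MRPS18C (-0.0519 to 0.2008) between the lines. The cause was not tested. The replicate numbers pair no samples by the labels, and deviations of same-numbered libraries correlated at -0.03 to 0.021. With the replicate block there were 10 members higher in A375, 1 lower in SK-MEL-28, 2 higher and 0 lower in the difference, and 14 higher and 5 lower between the lines. The corresponding shares of all genes were 12.3%, 9.56%, 1.41% and 1.68%, and 15.8% and 16.6%. With 3 libraries a group, log2 changes of 0.25 were mostly missed in simulations where few genes changed.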

Other observations

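Between the lines under etoposide, the RNAs encoded by mitochondrial DNA and the regulators differed in opposite directions. Over all genes, 15.2% were higher in SK-MEL-28 and 16.5% lower. Of 14 mitochondrial RNAs, 9 were higher in SK-MEL-28 by edgeR and 0 lower (0 also at an unadjusted p under 0.05; median log2 difference 0.19), with MT-RNR2, the large ribosomal RNA of the organelle (0.32, edgeR adjusted p = 0.0013), and MT-ND5 (0.32, edgeR adjusted p = 0.0027) the most raised. Of 10 regulators of mitochondrial genes, 4 were lower in SK-MEL-28 by edgeR and 0 higher (0 also at an unadjusted p under 0.05), with TFEB, a lysosomal and autophagy transcription factor (-1.26, edgeR adjusted p = 0.011), and MYC (-0.49, edgeR adjusted p = 0.0406) the lowest. Of 80 respiratory chain subunit genes in the test of the difference between responses, 1 was higher and 2 lower in SK-MEL-28. These are 1.25% and 2.5%, below the 2.66% and 2.97% of all genes. TFB1M, a methyltransferase of the small ribosomal RNA, was the single assembly factor of 25 called between the lines (0.59, edgeR adjusted p = 0.000587).

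Pseudogene rows of MRPS31 and MRPL45 held 65.16% and 12.95% of the level of the gene itself, and how reads were divided between these copies is not stated, so the values of both genes are less certain than those of the other members.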
